A study of Mus musculus with 24 samples.

Results

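Cdx2 binding at the promoters of protein-coding genes was examined in mouse colon organoids, which are cultured epithelial structures grown from colon stem cells. Peaks of 12 Cdx2 ChIPmentation libraries, an assay in which antibody-captured chromatin is tagged with sequencing adapters by a transposase, were merged wherever they overlapped by at least 1 bp on chromosomes 1 to 19, X and Y. This gave 61454 regions, of which 35518 were called in at least 2 libraries. A region was a promoter region when its median summit, the median position of the highest point of its peaks, lay within 1 kb of a transcript start of a protein-coding gene in GENCODE vM21 on mm10. The rule found 1557 promoter regions and left 33961 other regions. All values below are in mm10 coordinates, and offsets are from the nearest such start, negative where upstream.

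The study asked how Cdx2 binding differs between proximal and distal colon organoids and after loss of stem cell niche factors. The 4 groups of 3 libraries combined a colon site (proximal or distal) with a medium (WENR-plus or WENR-minus). WENR-plus medium holds Wnt3a, EGF, Noggin and R-spondin-1, and the WENR-minus cultures had 2 days in that medium followed by 3 days without these 4 factors. Every group came from organoids of 3 female mice kept 4 months in WENR-plus. The mice were heterozygous for a Cre-inducible BrafV600E allele and heterozygous for a tdTomato reporter. They came from crossing homozygous tdTomato reporter animals of mixed B6;129S6 background (allele t(ROSA)26Sortm9(CAG-tdTomato)Hze/J) to animals heterozygous for the Cre-inducible BrafV600E allele (B6.129P2(Cg)-Braftm1Mmcm/J). All 4 groups share this genotype and background, and no Cre treatment is stated for these cultures. Age is not stated in the labels. A site and replicate number is called a line here, which gives 6 lines, each in both media. Whether equal numbers at the 2 sites mark the same mouse is not stated, so p-values measure the spread between these libraries or lines. The lists hold no expression values, and the labelled tissue was therefore not checked against expressed markers.

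Cdx2 is a caudal-type homeodomain factor that sets and keeps intestinal epithelial identity, and in the adult gut it binds many distal enhancers as well as promoters of enterocyte genes. Homeodomains of this family prefer A/T-rich sites built around TTTAT. Mammalian promoters fall broadly into CpG-rich starts, typical of widely used genes, and CpG-poor starts, which are more often tissue-specific and may carry a TATA box.

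The sequences under the strongest and most recurrent summits show what these sites look like. Each run is the median summit and the 50 bases to each side, on the mm10 plus strand, with the CDX motif in capitals. The motif was TTTATG or TTTATT followed by a purine (A or G), on either strand. The first 5 belong to promoter regions called in all 12 libraries with high enrichment, at chr6:146725810-146725910 (Stk38l), chr1:34120760-34120860 (Dst), chr2:14174449-14174549 (Tmem236), chr9:95815902-95816002 (Pls1) and chr1:138967691-138967791 (Dennd1b). Pls1 has 3 motif copies, and Dst has none in this window.
Stk38l: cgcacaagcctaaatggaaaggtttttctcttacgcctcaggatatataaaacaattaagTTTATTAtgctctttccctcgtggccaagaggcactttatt
Dst: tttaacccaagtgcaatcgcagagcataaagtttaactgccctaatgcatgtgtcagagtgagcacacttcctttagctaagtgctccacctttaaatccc
Tmem236: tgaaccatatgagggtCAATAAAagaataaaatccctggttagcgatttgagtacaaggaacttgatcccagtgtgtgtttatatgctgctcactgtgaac
Pls1: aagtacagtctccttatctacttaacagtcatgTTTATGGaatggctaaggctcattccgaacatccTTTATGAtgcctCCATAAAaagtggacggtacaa
Dennd1b: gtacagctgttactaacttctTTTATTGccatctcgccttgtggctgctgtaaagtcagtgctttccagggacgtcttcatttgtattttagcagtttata
The next pair, at chr8:18991212-18991312 (Defb37) and chr5:98552476-98552576 (Gm11111), was called in all 6 proximal libraries and in no distal library, and each holds 1 motif copy.
Defb37: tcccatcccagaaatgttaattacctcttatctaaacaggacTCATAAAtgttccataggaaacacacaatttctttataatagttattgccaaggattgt
Gm11111: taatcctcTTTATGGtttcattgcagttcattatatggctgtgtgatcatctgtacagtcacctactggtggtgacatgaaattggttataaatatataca
The last pair, at chr13:37777358-37777458 (Rreb1) and chr11:58420984-58421084 (1810065E05Rik), was called in all 12 libraries and has no CDX motif within 50 bp of any library's summit.
Rreb1: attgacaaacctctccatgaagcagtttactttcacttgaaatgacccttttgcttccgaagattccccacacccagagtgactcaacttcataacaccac
1810065E05Rik: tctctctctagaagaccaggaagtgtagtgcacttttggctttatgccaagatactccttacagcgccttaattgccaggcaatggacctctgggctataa

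Before the results, 35 of the 1557 promoter regions have to be set apart. They lie in 3 clusters of predicted genes in multi-copy sequence, 30 at chr9:3000250-3037448, 2 at chr2:98662243-98667298 and 3 at chr14:19418092-19419410. Their starts belong to 12 predicted genes (such as Gm10717, Gm10800 and Gm21738), 97.1% are soft-masked repeat in the reference, and none has a CDX motif. Their fold enrichment over matched input was low (median 1.90, range 1.16 to 3.31, against a median of 5.72 in the other promoter regions), while their median −log10 p was 90.2 against 10.6. Reads from near-identical copies cannot be placed uniquely, so these regions are uncertain. They include 12 of the 90 promoter regions called in all 12 libraries. This set was defined after the values were seen, and results that it moves are given with and without it. The lists themselves varied widely, from 5608 to 42192 peaks and from 5362 to 29963 regions of the 35518 per library. Library read totals, which the study gives, entered no count or test here, and the lists hold no read counts per peak.

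Within the 1 kb set by the rule, more summits stood upstream of the start than downstream. The median distance was 435 bp. The median offset was −133 bp (quartiles −500 and 351 bp), 61.9% of the 1557 were upstream, and 13.4% were within 100 bp. In windows of 250 bp, the count was highest just upstream of the start, with 342 regions in the 250 bp before it, 233 in the window before that and 156 in the first window downstream. Downstream windows within the limit held 133 to 162 regions. From 1000 to 2000 bp, windows held 147 to 169 regions upstream and 128 to 169 downstream. Of the median summits, 814 (52.3%) lay in an intron of some annotated transcript, 509 (32.7%) outside genes, 194 (12.5%) in an untranslated exon and 40 (2.57%) in coding exon. A start of a transcript annotated as protein-coding was within 1 kb for 1154 regions (74.1%), the outermost start of the gene for 814 (52.3%) and the start of a principal transcript for 897 (57.6%). Thus about as many regions lay at alternative or internal starts as at the gene's outermost start. Only 1 gene had a start within reach for 1502 regions, 2 genes for 52 and 3 genes for 3.

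**Figure D1:**
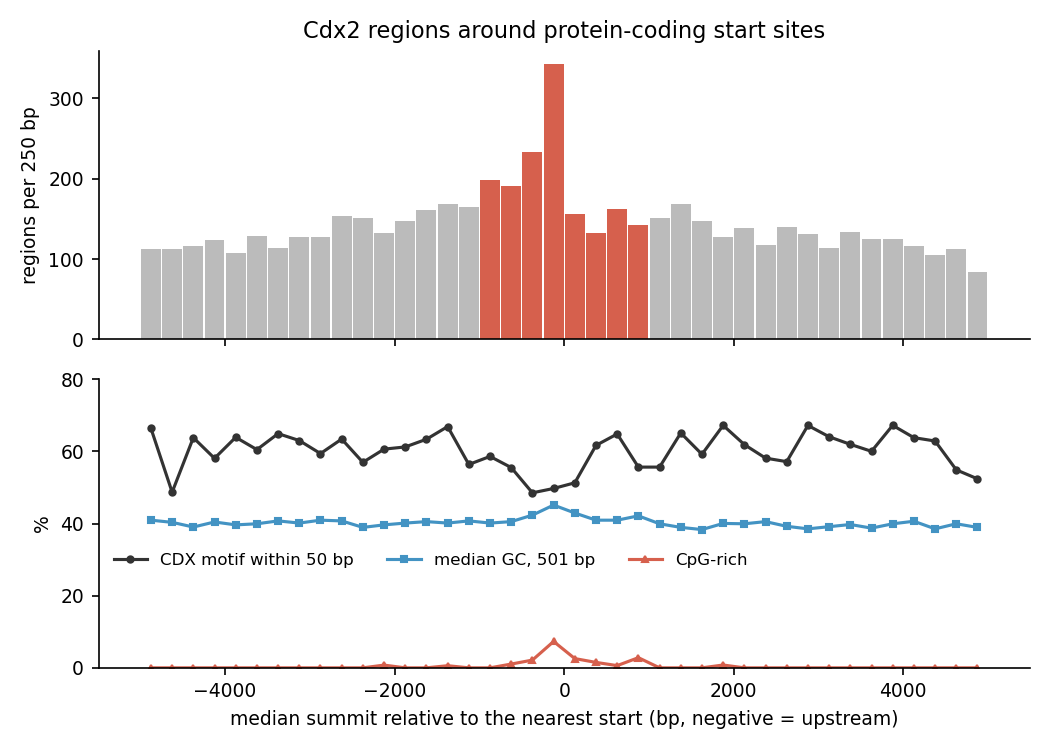
Number of regions (upper panel) and percent of regions with a CDX motif within 50 bp of the median summit (lower panel) in 250 bp windows by distance from the nearest protein-coding start (bp, negative upstream). The count is highest, at 342, in the window just upstream of the start, and the motif share there is 49.7%.

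The base composition at promoter summits differed from that of promoters in general. Among the 93459 start positions of protein-coding genes, 35.95% lay in a CpG-rich window (GC over 55% and observed over expected CpG over 0.65 around the position), but only 43 of the 1557 promoter regions (2.76%) had a CpG-rich summit window. The share in the 33961 other regions was 0.0412%. The share at the starts depended on the unit counted. Of the 2995 start positions with a promoter region, 37.96% were CpG-rich, where a gene with many starts counts many times. By region, the nearest start was CpG-rich for 345 of the 1557 (22.2%). For the 345 regions whose nearest start was CpG-rich, the median distance to it was 602 bp, 5.22% of summits were within 100 bp, 68.1% were upstream, and 12.2% of the summit windows were themselves CpG-rich. For the 1212 regions next to other starts, the median distance was 383 bp and 15.7% were within 100 bp. The median GC content was 42.1% in promoter regions and 36.7% in other regions. These are descriptions of where the rule's members sit, with no test.

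The CDX motif was found within 50 bp of the median summit in 851 promoter regions (54.7%) and in 67.3% of other regions, against 3.12% of all 93459 start positions in windows of the same length. In flanking windows it was found in 7.80% and 11.5% of the same sets. By its last letters, TTTATGA was present in 17.2% of promoter regions (26.1% of other regions) and TTTATGG in 12.3% (14.9%). TTTATTA was present in 18.4% (24.7%) and TTTATTG in 19.7% (23.6%), and a window can hold more than 1 form. The share was lowest nearest to the start, at 41.8% within 100 bp, and was 56.2%, 53.3% and 58.6% in the bands out to 250, 500 and 1000 bp. It was 61.3% from 1 to 3 kb and 74.1% beyond 100 kb. With the repeat clusters left out, 55.9% of 1522 promoter regions had the motif.

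The GC box and the ETS core, motifs of widely used promoters, were rarer under these summits than at starts at large, and the CCAAT and TATA boxes were more frequent. All were searched on both strands in the same windows. The GC box of the SP/KLF family (GGGCGG) was in 3.34% of promoter regions, 0.583% of other regions and 20.3% of all start positions. The ETS core (CCGGAAG) was in 1.22%, 0.194% and 5.27% of the same sets. The CCAAT box, bound by NFY, was in 20.04%, 17.8% and 11.3%. The TATA box (TATAAA), whose letters can overlap a CDX motif, was in 17.98%, 22.2% and 3.86%. These contrasts set windows at summits against windows at starts. At the start positions with a promoter region, the same motifs were slightly more frequent than at all starts. There the GC box was in 21.04%, the ETS core in 7.145%, the CCAAT box in 12.22% and the TATA box in 4.24%. Motifs of other gut factors were in few promoter regions, at 8.67% for GATA factors (spelled AGATAA, 10.3% of other regions and 2.84% of starts), 6.49% for AP-1 (TGANTCA, 7.49% and 1.95%) and 3.28% for FOXA (TGTTTAC, 2.82% and 0.890%). HNF4 was in 0.707% (0.530% and 0.143%), CRE and NRF1 in 0.193% each, and HNF1 in 0 of 1557. A match is a description of letters, not of occupancy.

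Within a library, promoter regions ranked lower in enrichment, held the motif less often and were slightly narrower than other regions. The percentile of fold enrichment, where 100 is the highest peak of that library, had medians of 37.1 to 60.6 in promoter regions and 50.2 to 60.6 in other regions across the 12 libraries. Over the 6 lines the difference of medians was −6.81 ± 3.62 points (SD, n = 6, range −12.2 to −3.12). The motif share at each library's own summits was 40.3% to 57.4% in promoter regions and 49.8% to 66.6% in other regions, a difference of −11.2 ± 1.26 percentage points (SD, n = 6, range −12.3 to −9.63). Median widths were 201 to 331 bp and 211 to 367 bp, with a log2 difference of −0.08 ± 0.06 (SD, n = 6). Each difference was negative in 6 of 6 lines (two-sided exact sign-flip permutation test, adjusted p = 0.031 over the 3 measures, the smallest that 6 lines allow). The organoids of both sites came from 3 mice, so proximal and distal lines may share an animal, and with 3 animals as the unit such a test could not go below 0.25. Without the repeat clusters the differences were −3.92 points, −8.40 percentage points and −0.08. The motif difference was still negative in 6 of 6 lines and the other two in 5 of 6 (exact permutation test, adjusted p = 0.0625 for each). Ranked by −log10 p in place of fold, the percentile difference was −1.47 (adjusted p = 0.25, exact permutation test over n = 6 lines).

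**Figure D2:**
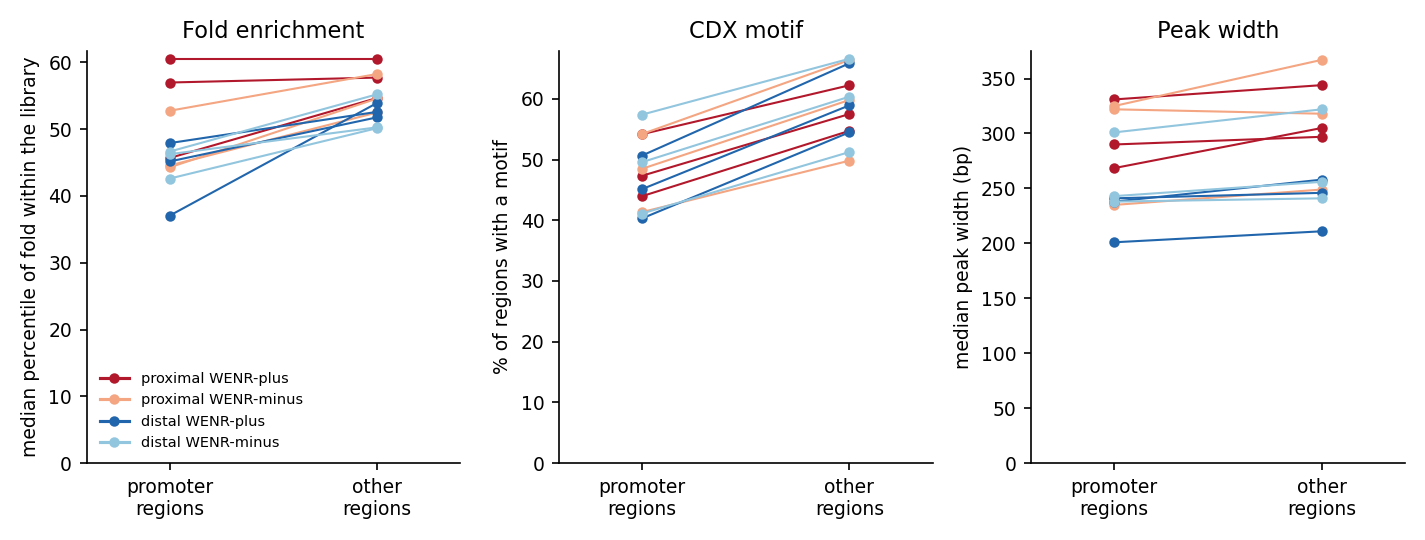
Median percentile of fold enrichment, percent of regions with a CDX motif and median peak width (bp) in promoter regions and other regions. The values of each of the 12 libraries are joined by a line and coloured by group. The motif difference lies between −15.2 and −8.06 points in the 12 libraries, and the percentile difference between −16.9 and 0 points.

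The number of promoter regions per library ranged from 306 to 1249. The proximal WENR-plus libraries had 1126, 1249 and 728 promoter regions and the proximal WENR-minus libraries 1075, 548 and 583. The distal WENR-plus libraries had 306, 645 and 335 and the distal WENR-minus libraries 697, 341 and 416. In WENR-plus every proximal library was above every distal one (1034 ± 272.3 against 428.7 ± 187.9, SD, n = 3 each). The ratio of geometric means was 2.49 (log2 1.32, two-sided exact permutation test, p = 0.1, the smallest that 3 against 3 allows). In WENR-minus the groups overlapped (735.3 ± 294.7 against 484.7 ± 187.7, ratio 1.51, exact permutation p = 0.3), while within replicate numbers the proximal library was higher in 3 of 3 pairs (exact sign-flip permutation p = 0.25, the smallest that 3 pairs allow). The media also overlapped, with a ratio of WENR-plus to WENR-minus of 1.44 in proximal organoids (exact permutation p = 0.2, and higher in 3 of 3 pairs) and 0.874 in distal organoids (exact permutation p = 0.5). With every list reduced to the length of the shortest, the log2 ratio of proximal to distal was −0.11 in WENR-plus and −0.08 in WENR-minus, so the direction did not hold at equal list length. By the read totals that the study gives, every proximal WENR-plus library was also sequenced deeper than every distal one. In WENR-minus the read totals of the sites overlapped. The part of depth in these counts was not tested.

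As a share of each library's regions, promoters took 3.65% to 6.25%. The share was 4.28%, 4.17% and 5.80% in proximal WENR-plus and 4.47%, 3.65% and 5.43% in proximal WENR-minus. It was 4.31%, 5.22% and 6.25% in distal WENR-plus and 3.76%, 4.56% and 5.56% in distal WENR-minus. Replicate 3 had the highest share in each of the 4 groups and also the lowest motif share at promoter summits, at 44.0%, 41.3%, 40.3% and 41.1% in the same order. By line, the proximal share was 4.63 ± 0.882% and the distal share 4.94 ± 0.935% (SD, n = 3 lines each), a difference of −0.309 points (exact permutation p = 0.7). Without the repeat clusters this difference was −0.082 points (exact permutation p = 0.8). The share was higher in WENR-plus in 5 of 6 lines, by 0.432 points on average (5.00% against 4.57%, two-sided exact sign-flip permutation p = 0.0625). The exception was proximal line 1, at −0.188 points. At equal list lengths the mean difference was 0.378 points (exact permutation p = 0.031). By line, the medium difference was −0.188, 0.518 and 0.365 points in proximal and 0.548, 0.659 and 0.692 points in distal organoids, without overlap (exact permutation p = 0.1, the smallest that 3 lines against 3 allow).

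**Figure D3:**
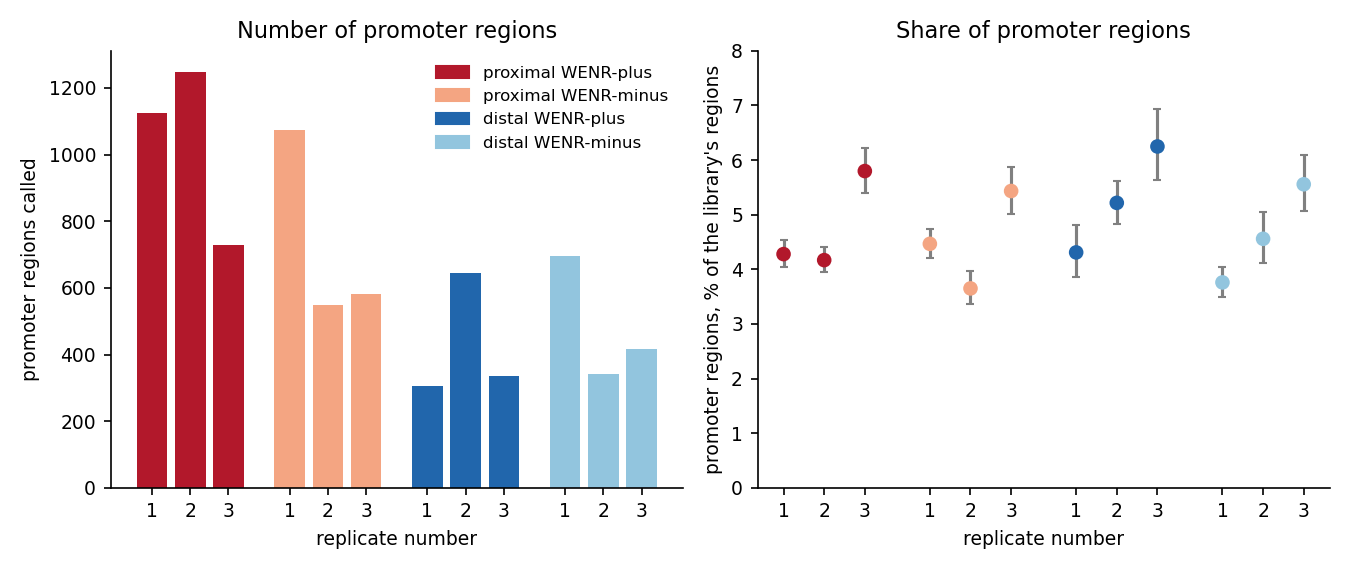
Number of promoter regions (left) and their percent of the library's regions (right) in each of the 12 libraries by group. The intervals on the shares are Wilson 95% intervals, which cover counting error only. Proximal WENR-plus libraries hold 728 to 1249 promoter regions and distal WENR-plus libraries 306 to 645, while the shares overlap in all groups.

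Promoter regions recurred across libraries about as often as regions in general. Of the 1557, 90 were called in all 12 libraries (5.78%, Wilson 95% interval 4.73% to 7.05%), against 5.85% of all 35518 regions, and 78 of 1522 (5.12%) without the repeat clusters. At the other end, 402 (25.8%) were called in exactly 2 libraries, against 27.1% of all regions. These and the intervals below cover counting error only. Calls in all 6 proximal and no distal library numbered 21 (1.35%, background 1.8%). Calls in all 6 distal and no proximal library numbered 0 of 1557 (background 0.0957%), with a Wilson upper bound of 0.246%. Within WENR-plus, 144 (9.25%) had a peak in the 3 proximal libraries without one in distal libraries (background 8.12%) and 8 (0.514%) in the opposite pattern (background 0.259%), of which 5 lay outside the repeat clusters. Within WENR-minus these counts were 46 (2.95%, background 3.53%) and 12 (0.771%, background 0.577%). Between media, 29 proximal promoter regions (1.86%, background 1.28%) were called in all 3 WENR-plus and no WENR-minus library and 1 (0.0642%, background 0.206%) in the reverse. In distal organoids the counts were 6 (0.385%, background 0.222%) and 10 (0.642%, background 0.709%). At equal list lengths, of 489 promoter regions 4 were called in all 6 proximal libraries only (0.818%, against 1.29% of all regions at that length) and 3 in all 6 distal libraries only (0.613% against 0.618%).

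The 10 promoter regions of highest mean percentile among those called in all 12 libraries ranged from 92.8 to 96.5 in that percentile. The highest was at Cystm1, a small membrane protein gene (chr18:36343741-36344789, offset −386 bp). Its fold enrichment was 18.1, 20.4 and 17.1 in proximal WENR-plus, 19.1, 10.6 and 18.5 in proximal WENR-minus, 11.5, 20 and 18.3 in distal WENR-plus and 12.6, 13 and 15.3 in distal WENR-minus. Stk38l, which encodes a kinase of the NDR family, had a region in an intron 548 bp downstream of the start (chr6:146725410-146726367) with folds of 9.07 to 25.8. Dst, a large linker of the cytoskeleton, had its region at −758 bp (chr1:34120086-34121350) with folds of 8.88 to 21.5. At Stk38l the proximal WENR-plus libraries (18.5 to 25.8) were above all others (9.07 to 18.2), with no call in either comparison (limma adjusted p = 0.972 for site and 0.192 for medium). At Cystm1 they were above the distal WENR-minus libraries and overlapped the other groups.

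A further pair of this set sat almost on the start. The Tmem236 region (chr2:14174056-14175290) was at −24 bp with folds of 9.07 to 21.3. The Dennd1b region (chr1:138967205-138968174) was at 21 bp, in an untranslated exon, with folds of 7.69 to 18.1. Dennd1b encodes an exchange factor for Rab GTPases. Pls1, which encodes an actin-bundling protein of intestinal microvilli, had its region at −546 bp (chr9:95815390-95816480). Its fold was 15.4, 21 and 21.1 in proximal WENR-plus and 18.5, 14.8 and 17.4 in proximal WENR-minus. In distal organoids it was 12.3, 8.76 and 17.5 in WENR-plus and 15.2, 7.49 and 16.1 in WENR-minus. The remaining 4 were Ufsp2 (a protease for the ubiquitin-like UFM1, −197 bp), Trim31 (an E3 ubiquitin ligase, −913 bp), Rhot2 (a mitochondrial GTPase, 76 bp) and Rreb1 (a zinc-finger transcription factor, −992 bp). Of the 90 promoter regions called everywhere, 25 had no CDX motif at any library's summit. That set comprised 12 regions in repeat clusters and 13 elsewhere, among them Rreb1, 1810065E05Rik, Kmt2a, Ildr1 and Slc26a3.

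Among the 21 promoter regions seen in every proximal library but not in distal ones, the strongest by far in rank was at Defb37, a beta-defensin gene (chr8:18990646-18991996, offset −207 bp). Its fold was 19.3, 27 and 23.1 in WENR-plus and 14.3, 15.2 and 21.5 in WENR-minus, with a mean percentile of 97.8. The next were Gm11111 (81.0), Dao, the D-amino acid oxidase (78.8), Slc18a1, a vesicular monoamine transporter (78.4), and Apol10a of the apolipoprotein L family (77.4). Their folds ranged from 5.65 to 15.3. Of the 21, 85.7% held the CDX motif at the median summit, against 63.8% of the 640 regions of this pattern over the genome.

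By gene, 1477 of the 21938 protein-coding genes (6.73%) had a promoter region, and 88 (0.401%) had one called in all 12 libraries. Without the repeat clusters 1465 genes remained. The share was 7.78% in the 11266 genes with a CpG-rich start and 5.62% in the 10672 without. It was 4.42% in genes with 1 start, 5.5% with 2 to 5 and 10.9% with more than 5, and each further start widens the sequence that counts as promoter. A single region was found in 1364 genes, and 113 genes had more than 1. Outside the repeat clusters the most were at Fryl, a relative of the furry cytoskeletal proteins, with 5 regions spread over its alternative starts, then Hoxa7 with 4 and Arhgap12 with 3 (chosen by the rule that named the highest counts).

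The gene lists below were compiled with earlier results of these data known, and each is described by its count beside the 6.73% of all protein-coding genes, with a Wilson 95% interval and no test. Structural genes of the enterocyte surface had the highest share. Of 27 brush border and microvillus genes, 12 had a promoter region (44.4%, interval 27.6% to 62.7%). Pls1, Vil1 (villin, the actin bundler of microvilli) and Cdhr5 (a protocadherin of the intermicrovillar links) were called in all 12 libraries, with mean percentiles of 94.3, 70.5 and 61.2. Cobl, an actin nucleator, was called in 8. Transport genes of the colonocyte gave 6 of 35 (17.1%, 8.10% to 32.7%). Gucy2c, the receptor for guanylin, and Slc26a3, a chloride-bicarbonate exchanger, were called in all 12 libraries, and the water channel gene Aqp8 and the carbonic anhydrase gene Car1 in 10. In digestion and lipid absorption 7 of 37 genes (18.9%, 9.48% to 34.2%) had a region, among them the bile acid transporter gene Slc10a2 in 10 libraries and the sucrase-isomaltase gene Sis and the meprin gene Mep1a in 8 each. Offsets in these 3 lists varied, from −76 bp at Sis, −75 bp at Slc10a2 and −40 bp at Aqp8 to −690 bp at Plin2, 728 bp at Eps8l3 and −954 bp at Slc26a2.

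Transcription factors of the gut and of the body axis followed. Of 39 Hox genes, 13 had a promoter region (33.3%, 20.6% to 49.0%), and Hoxa7, Hoxc6, Hoxa4 and Hoxa3 had one in all 12 libraries. Hox transcripts overlap within a cluster, so 1 region can serve the starts of neighbours. Of 37 intestinal transcription factors, 10 had one (27.0%, 15.4% to 43.0%). Hnf4g, a nuclear receptor of enterocytes, was called in 12 libraries, Nr5a2 and Grhl2 in 11, Foxa1 in 9, Ehf in 8 and Hnf4a in 7. Detoxification and efflux genes gave 8 of 34 (23.5%, 12.4% to 40.0%), with Cyp2c65, Sult1d1 and the efflux pump gene Abcb1a in 9 libraries each. Junction, adhesion and keratin genes gave 6 of 38 (15.8%, 7.44% to 30.4%), with the intestinal cadherin gene Cdh17 in 12 libraries (offset −68 bp, mean percentile 88.5). Goblet cell genes gave 4 of 28 (14.3%, 5.70% to 31.5%), with Agr2 in 9, Tff3 in 8 and Muc2 in 3 libraries. Mucosal defence genes gave 5 of 42 (11.9%, 5.19% to 25%).

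Signalling and stem cell lists had shares nearer to the background. Of 46 Wnt pathway genes 4 had a promoter region (8.70%, 3.43% to 20.3%). Lrp6, the Wnt co-receptor, was called in 12 libraries in an intron 758 bp downstream of a start, and Tle4, Tle3 and Fzd9 in 5, 2 and 2. Colon stem cell and Wnt target genes gave 3 of 29 (10.3%, 3.58% to 26.4%), namely Soat1 (10 libraries), Rgmb (3) and Cdca7 (2). Notch, BMP and TGF-beta pathway genes gave 3 of 45 (6.67%, 2.29% to 17.9%), with Tgif1 in 8, Nrarp in 7 and Hes1 in 5 libraries. EGF receptor and growth factor signalling genes gave 4 of 35 (11.4%, 4.54% to 26.0%), with the ERK phosphatase gene Dusp6 in 7 libraries. Cell cycle genes gave 3 of 43 (6.98%, 2.4% to 18.6%), namely Ccnd2 (11 libraries), Cdkn2a (4) and Cdkn2b (3).

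Lists chosen for contrast varied too. Ribosomal protein genes, of which 90.2% have a CpG-rich start, gave 1 of 82 (1.22%, 0.216% to 6.59%), Rpl41 in 3 libraries. Oxidative phosphorylation genes gave 6 of 81 (7.41%, 3.44% to 15.2%) and housekeeping reference genes 4 of 25 (16%, 6.40% to 34.7%), mostly in 2 libraries apart from the transferrin receptor gene Tfrc in 10. Olfactory receptor genes, silent in most tissues, gave 57 of 1093 (5.22%, 4.05% to 6.70%), with Olfr655 called in 11 libraries. Enteroendocrine, tuft and Paneth genes gave 1 of 24 (4.17%, 0.739% to 20.2%), Mmp7 in 2 libraries. None of 30 marker genes of mesenchyme, endothelium, blood and nerve had a promoter region (0%, with a Wilson upper bound of 11.4%).

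**Figure D4:**
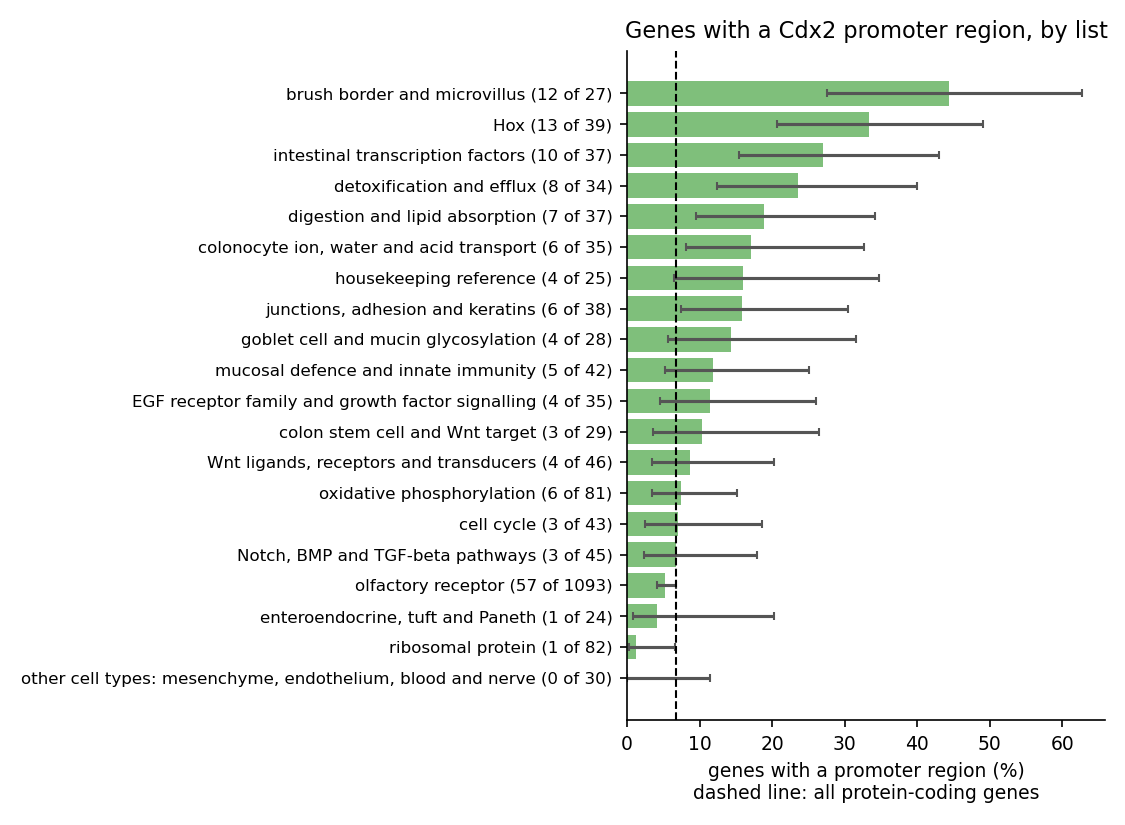
Percent of genes in each list with a promoter region in at least 2 libraries (bars) with Wilson 95% intervals and the 6.73% of all protein-coding genes as a dashed line. Brush border genes (44.4%) and Hox genes (33.3%) stand highest, and ribosomal protein genes (1.22%) and markers of other cell types (0) lowest.

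Fold enrichment was compared between sites for regions called in all 12 libraries, 2079 in all and 90 at promoters, by limma on quantile-normalized log2 fold. The fit took the 12 libraries as independent, but the 6 of each site are 3 lines in both media. Its site p-values therefore do not measure the spread between lines. Folds given for single libraries are from before this normalization. They are not directly comparable between libraries, so a separation of groups in them is only a description. Proximal organoids were higher at 3 promoter regions and distal organoids at 0 (adjusted p under 0.05 over all 2079, where 5.96% were higher in proximal and 4.81% higher in distal). At an unadjusted p under 0.05 the counts were 5 and 3, where 12.4% of all 2079 were higher in proximal and 12% higher in distal. The largest difference was at Hnf4g (chr3:3633344-3634625, offset −176 bp). Its fold was 24.7, 29.5 and 23.7 in proximal WENR-plus, 20.6, 24.4 and 23.3 in proximal WENR-minus, 5.81, 8.44 and 9.81 in distal WENR-plus and 9.89, 7.75 and 10.8 in distal WENR-minus. Before normalization all 6 proximal libraries were above all 6 distal ones. The log2 difference after it was 1.01 ± 0.166 (SE, limma adjusted p = 0.00258).

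The second was at Nckap1l, which encodes a WAVE complex subunit known from blood cells (chr15:103478955-103480540, untranslated exon, offset 327 bp). Its fold was 16.8, 15.5 and 20.4 in proximal WENR-plus, 16.8, 13.1 and 13.9 in proximal WENR-minus, 6.43, 12.4 and 8.5 in distal WENR-plus and 6.46, 5.92 and 5.35 in distal WENR-minus. The sites did not overlap before normalization, and the log2 difference after it was 0.72 ± 0.158 (SE, limma adjusted p = 0.00882). Hoxc6 (chr15:103009693-103010442, intron, offset 462 bp) was at 19.3, 22 and 16 in proximal WENR-plus, 19.3, 17 and 13 in proximal WENR-minus, 9.7, 9.77 and 8.11 in distal WENR-plus and 11, 6.31 and 9.5 in distal WENR-minus. The sites did not overlap there either before normalization (log2 difference after it 0.52 ± 0.159 SE, limma adjusted p = 0.0471). Hnf4g and Nckap1l passed with any 1 of the 12 libraries left out, whereas Hoxc6 passed in 3 of these 12 fits and not in the other 9 (limma adjusted p up to 0.114).

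Of the promoters with the next lowest p, Ccr2, a chemokine receptor gene, had a log2 difference of 0.50 (limma adjusted p = 0.0983), and Cnep1r1 of 0.40 (limma adjusted p = 0.13). The fitted difference was below 0 at Tex12, with −0.55 (limma adjusted p = 0.051), Hoxa7, with −0.51 (limma adjusted p = 0.139), and Zfp286, with −0.32 (limma adjusted p = 0.201). Cystm1 and Lrrc19 followed at −0.38 and −0.37 (limma adjusted p = 0.205 for both). These signs are those after quantile normalization. Before it, the median fold of the 6 proximal and the 6 distal libraries was 9.22 and 11.4 at Tex12 and 10.4 and 11 at Lrrc19. It was higher in proximal libraries at Hoxa7 (12.1 and 11.2), Zfp286 (10.2 and 9.96) and Cystm1 (18.3 and 14.2). Over the 90, the median log2 difference was −0.05, against −0.03 over all 2079. After normalization, 32 of the 90 had a higher and 58 a lower fitted fold in proximal organoids. Of the 12 members in repeat clusters, 10 were among the lower ones. The same split was not counted over all 2079. With the replicate number as a block, 5 passed, 4 higher in proximal (Ccr2 added, limma adjusted p = 0.0332) and 1 higher in distal (Tex12, limma adjusted p = 0.0253), where 8.75% and 7.5% of all 2079 did. With median centring in place of quantile normalization, 4 were higher in proximal (9.28% of all 2079) and 11 higher in distal (7.65% of all 2079), and 10 of those 11 lay in the repeat clusters.

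Between media no promoter region passed (0 of 90, where 0.0962% of all 2079 were higher in WENR-plus and 0.241% higher in WENR-minus). At an unadjusted p under 0.05, 10 were higher in WENR-plus (6.83% of all 2079) and 4 higher in WENR-minus (8.27% of all 2079). The lowest adjusted p was at Slc35a1, the gene of the Golgi CMP-sialic acid transporter (chr4:34682226-34683223, intron, offset 578 bp). Its fold was 20.2, 22.3 and 21.9 in proximal WENR-plus against 14.5, 8.93 and 8.15 in proximal WENR-minus. In distal organoids it was 10.5, 18.6 and 9.94 in WENR-plus against 10, 3.95 and 6.63 in WENR-minus. The media did not overlap in proximal organoids and overlapped in distal ones only through the values of 9.94 and 10. The log2 difference was 0.94 ± 0.206 (SE, limma adjusted p = 0.0518). It passed with the replicate number as a block (limma adjusted p = 0.0191), with the 6 lines as blocks (limma adjusted p = 0.0362), and without distal WENR-plus replicate 3 or distal WENR-minus replicate 1 (limma adjusted p = 0.0486 and 0.0273). In the other 10 fits with 1 library left out it did not pass (limma adjusted p up to 0.121).

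Kmt2a, a histone H3K4 methyltransferase gene, held the highest fold of any promoter region (39.2) in a CpG-rich window with 76.7% GC and no CDX motif (chr9:44880976-44882080, offset −159 bp). Its fold was 29.5, 39.2 and 24.3 in proximal WENR-plus, 34.1, 18 and 19.6 in proximal WENR-minus, 24.2, 33.8 and 34.6 in distal WENR-plus and 6.13, 4.73 and 21.3 in distal WENR-minus. The 2 low values were both distal WENR-minus libraries, and the third library of that group was within the proximal WENR-minus range. The log2 medium difference was 1.09 ± 0.300 (SE, limma adjusted p = 0.0909). It passed with the replicate number (limma adjusted p = 0.0333) or the lines (limma adjusted p = 0.0302) as blocks. Without distal WENR-minus replicate 3 it was 1.46 (limma adjusted p = 0.000563), and in that fit the medium difference also differed between sites (interaction, limma adjusted p = 0.00324). In the other 11 fits with 1 library left out, neither the medium difference (limma adjusted p up to 0.202) nor the interaction passed. With all 12 libraries no promoter region had such an interaction (0 of 90, limma adjusted p of at least 0.995, and 3 in each direction at an unadjusted p under 0.05, against 1.88% of all 2079 with the larger medium difference in proximal and 2.41% in distal organoids).

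On the opposite side of the medium comparison, Ppp1r2, an inhibitor of protein phosphatase 1, had a log2 difference of −0.58 (limma adjusted p = 0.0827, and 0.0402 with the replicate block). Its fold was 6.59, 6.54 and 7.68 in distal WENR-plus and 14.5, 11.4 and 11.9 in distal WENR-minus, without overlap. In proximal organoids it was 14.9, 16 and 11.4 in WENR-plus and 17.2, 10.3 and 12.6 in WENR-minus, which overlapped. Hoxa4 was at 0.65 (limma adjusted p = 0.12), Ildr1, a tricellular junction gene, at −0.42 (limma adjusted p = 0.169), and Zdhhc7, a palmitoyltransferase gene, at −0.49 (limma adjusted p = 0.207).

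**Figure D5:**
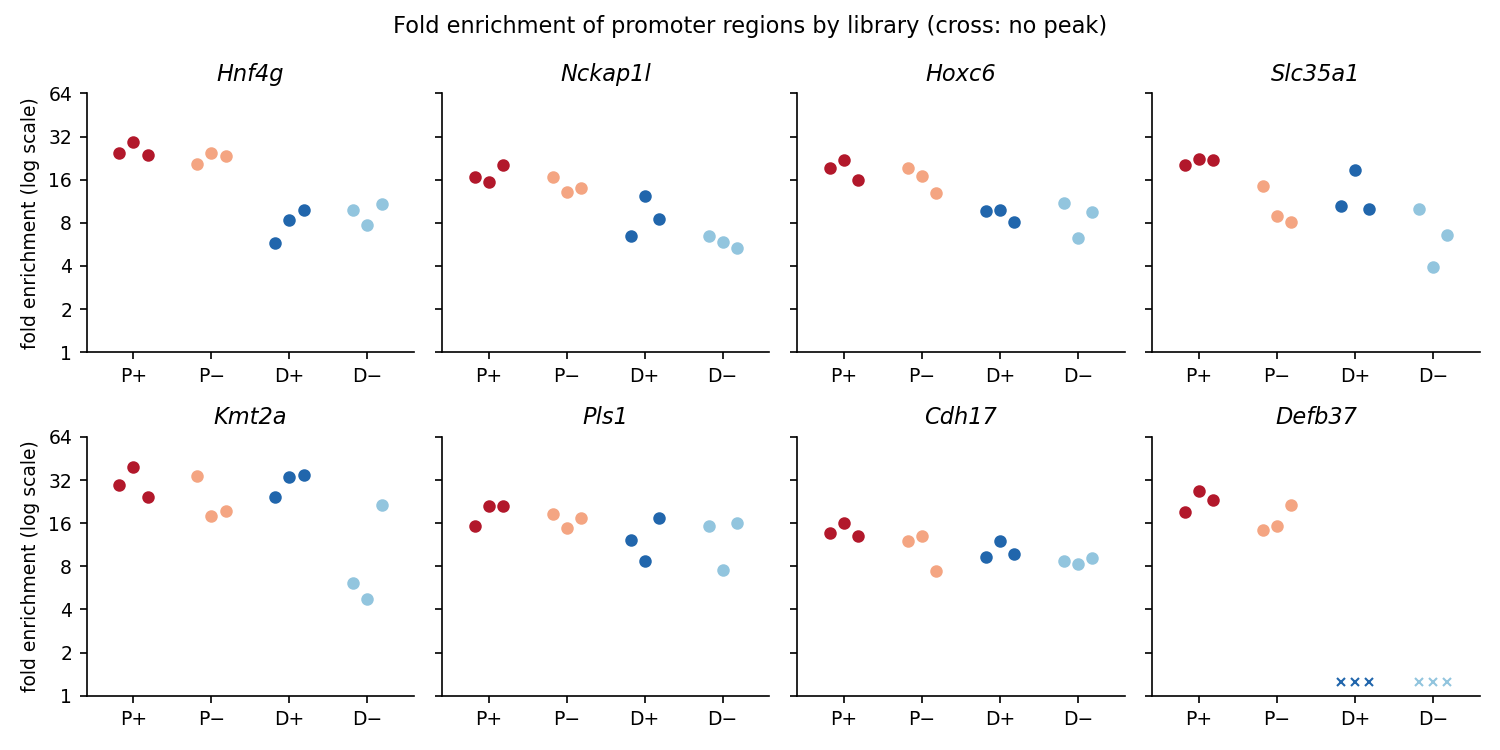
Fold enrichment over matched input in each of the 12 libraries, by group, at promoter regions named in the text. At Hnf4g the proximal libraries lie between 20.6 and 29.5 and the distal ones between 5.81 and 10.8, and at Kmt2a distal WENR-minus replicates 1 and 2 are at 6.13 and 4.73.

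At the limit of 1 kb, the members just inside were next to Chd8 and Scmh1 (both 999 bp) and Spata1 (998 bp), called in 3, 6 and 4 libraries. Just outside were regions next to Gtf2b (1001 bp), Taar9 (1002 bp) and Hace1 (1003 bp), called in 2, 8 and 5 libraries.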

How the data were processed

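ChIPmentation for Cdx2 was done on organoid DNA, with matched inputs for 12 samples whose files were not analysed here. Per the labels, reads were trimmed by the authors (Trimmomatic 0.39), aligned to mm10 (Bowtie2 2.4.5), cleared of duplicates (SAMtools 1.13) and used to call peaks per library against input (MACS2 2.2.7.1). The deposited peak lists hold a score, a fold enrichment, −log10 p and −log10 q values and a summit offset. The lowest −log10 q of a list was 2.01 to 2.12. The read depth per library that the study gives entered no count or test here, no file used holds read counts per peak, and intervals cover counting error only.

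Peaks were merged and annotated with Python 3.11.15 and pysam 0.24.0, and motifs were read from mm10. Percentiles were ranked within a library. Library and line values were compared by exact permutation tests. Log2 fold was compared with limma 3.58.1 in R 4.3.3 over regions called in all 12 libraries, with Benjamini-Hochberg adjustment over all of them. Tested on simulated data for the site comparison on 2079 regions, the fit recovered 95 of 100 regions with a log2 change of 1 and 24 of 100 with 0.5, with 7 false calls. The simulated noise was independent between libraries, so these counts do not cover libraries that share a line. Members and gene lists were chosen with earlier results of these data known. Named regions were the 10 highest in mean percentile of those in all 12 libraries, the 5 highest called in all proximal libraries only, the 5 (site) or 3 (medium) of lowest p in each direction, the most recurrent genes of each list, and the genes with the most regions. Alternatives covered the promoter limit, the number of libraries, list length, peak threshold, overlap, motif, rank, normalization, left-out libraries and the replicate block. Leaving out the repeat clusters was added after the data were seen. Same-numbered libraries correlated in their deviations from group means by 0.00743 to 0.557 (median 0.227, 18 pairs), and differently numbered ones by −0.461 to 0.379 (median −0.133, 36 pairs).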

Additional observations from a re-analysis of the deposited data

How the results depend on the processing

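The exact tests could not go below 0.1 for 3 libraries against 3, so a missed threshold there says nothing about stability, and list length limits every count. At equal list lengths the log2 ratios of promoter region number reversed for site (−0.11 in WENR-plus, −0.085 in WENR-minus) and for medium in distal organoids (0.13), the medium difference in share passed at 0.378 points, and 489 promoter regions, 464 genes and 9.61% in all 12 libraries were found. A promoter limit of 500 bp gave 864 regions and 838 genes, and 3 kb gave 3885, 3334 and 7.18%. At 3 kb the differences from other regions no longer passed (−2.10 points of fold percentile, −7.54 points of motif share, log2 width −0.0038), and 16 site and 1 medium difference in fold were called among 279 promoter regions. Of all 2079 regions, 5.96% were higher in proximal and 4.81% in distal organoids, and 0.0962% in WENR-plus and 0.241% in WENR-minus. Regions in at least 3 libraries gave −6.26, −11.0 and −0.074, none passing after adjustment over the 3 measures, and 7.79% in all 12. Here and at 3 kb the motif difference was negative in 6 of 6 lines. Its unadjusted p was 0.031 (exact sign-flip permutation test), the smallest that 6 lines allow, and the adjustment for the other measures raised it. Width also missed the threshold with summits within 250 bp (−0.076) and in regions of all 12 libraries (−0.084), as did the fold percentile ranked by −log10 p (−1.47), and all 3 measures without the repeat clusters (−3.92, −8.40 and −0.080). Median centring called 15 site and 1 medium differences among 90 promoter regions. Of all 2079 regions, it called 9.28% higher in proximal and 7.65% higher in distal organoids. For medium, 4 of the 2079 were higher in WENR-plus and 12 in WENR-minus. Regions in at least 10 libraries gave 7 site calls of 219 promoter regions. Of all 4550 such regions, 247 were higher in proximal and 142 in distal organoids. The causes were not tested.

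Leaving out 1 library moved the log2 ratios of number to 1.12 to 1.65 and 0.29 to 0.89 for site in WENR-plus and WENR-minus, and to 0.35 to 0.83 and −0.53 to 0.10 for medium in proximal and distal organoids. The last reversed without distal WENR-plus replicate 1 (0.0076) and without distal WENR-minus replicate 1 (0.10). Without 1 replicate number, the site difference in share was −0.503 to 0.0299 points (0.0299, reversed, without replicate 2) and the medium difference 0.281 to 0.623. The fold percentile difference was −7.17 to −4.94, the motif difference −11.4 to −10.5 and the log2 width −0.12 (without replicate 1) to −0.047 (without replicate 3), with 4 lines and a smallest p of 0.125. The same settings gave 1067 to 1424 regions, 1010 to 1354 genes and 8.85% to 11.2% in all libraries, and leaving out 1 library gave 2 to 4 site and 0 to 1 medium calls of 90 promoter regions. In those fits, 84 to 119 of all 2079 regions were higher in proximal and 62 to 96 in distal organoids. For medium, 0 to 3 were higher in WENR-plus and 0 to 14 in WENR-minus.

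Same-numbered libraries correlated by 0.131 to 0.557 between the media of proximal organoids and by 0.12, 0.111 and 0.455 between the sites in WENR-minus. The lowest such value was 0.0229 between the sites in WENR-plus and 0.00743 between the distal media. Differently numbered libraries reached 0.212 between proximal media and 0.379 between the sites in WENR-minus. These correlations therefore do not settle whether the numbers pair the libraries. With the replicate block, the log2 number ratios were 1.32, 0.60, 0.53 and −0.19 and the site difference in share −0.309 points, with no call changed. In fold, this block called 5 site differences among 90 promoter regions, where 8.75% of all 2079 were higher in proximal and 7.5% in distal organoids. It called 3 medium differences, where 28 of all 2079 were higher in WENR-plus and 47 in WENR-minus. The lines as blocks called 2 medium differences, where these background counts were 23 and 43.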
